A study of Mus musculus with 2 samples.

Results

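The genes described here are the numbered Zfp genes of the mouse, whose symbols consist of Zfp and a number. In the deposited table, 311 rows carried such a symbol. Zfp42, Zfp36 and Zfp281 were left out by the rule, 62 of the other 308 genes had a mean of both libraries under 100, and the remaining 246 genes form the set, out of 14398 genes in all. The floor on the mean used the same values that are compared below, so the members were selected on their level, which is not a finding. RNA was sequenced from the 46C line of mouse embryonic stem cells at passages 21 to 24, grown on gelatin in serum medium with leukemia inhibitory factor. One culture had been transfected with the vector labelled PB-ID2 and overexpressed ID2, a helix-loop-helix protein that binds E proteins and keeps them off DNA. The other culture carried the empty vector labelled PB and served as the control. Each group had 1 library, so no difference has a replicate check or an error, and no test was run.

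Most numbered Zfp genes encode proteins with arrays of C2H2 zinc fingers, small folds held by a pair of cysteines and a pair of histidines around a zinc ion, and each finger can contact a few bases of DNA. Many also carry a KRAB box, which recruits the corepressor TRIM28 (KAP1) and, through it, the histone methyltransferase SETDB1 and heterochromatin proteins. In embryonic stem cells this system is known for silencing endogenous retroviruses and for keeping DNA methylation at imprinted loci. Other members bind RNA, ubiquitin systems or coactivators. The family grew by tandem duplication, so many members have close paralogs that can share reads, and how the authors counted such reads is not given in the sources used here.

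Id2 had 26225 in the ID2 library and 324 in the control library, in the direction of the labels. Levels here and below are normalized by the authors, with no depth known, and log2 ratios are of ID2 over control after adding 1 to each value. The stem cell markers Pou5f1, Sox2, Nanog, Esrrb and Klf4 summed to 81657 in the ID2 library and 64640 in the control library, and all 5 were higher in the ID2 library. Of 7 fibroblast or feeder cell markers, 5 were listed, summing to 1350 in the ID2 library and 2143 in the control library. Of 5 primitive endoderm markers, 4 were listed, summing to 299 in the ID2 library and 249 in the control library. Within that list Sox7 was higher (127 in the ID2 library and 16.9 in the control library) and Gata4, the 1 marker above the floor, was lower (76.4 in the ID2 library and 146 in the control library). Of 5 neural markers, 4 were listed, summing to 2445 in the ID2 library and 1872 in the control library, with Sox1 and Tubb3 higher, Nes and Neurod1 lower, and a median log2 ratio of -0.06. The part of these differences in the Zfp ratios was not tested. A change in cell makeup and a change in RNA per cell cannot be told apart in bulk RNA.

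The numbered Zfp genes stood mostly higher in the ID2 library. Of the 246 members, 192 (78.0%) were higher in the ID2 library, against 49.8% of all 11439 genes with a mean of at least 100, and 54 were lower, against 50.2% of all genes. The median log2 ratio was 0.30 over the members, a 1.23-fold difference, and -0.0023 over all genes. The normalized values of both libraries hold the same set of whole numbers before scaling, so a centre of all genes near 0 is no finding and the ratios of the members are relative to it. At least 2-fold higher were 28 members (11.4%), against 1.85% of all genes, and 0 members were at least 2-fold lower, against 1.14% of all genes. Of these 28, 12 had a control value under 100 and so passed the floor on the mean only through the ID2 library, where they are high; the same floor was applied to all genes. The 28 were 13.2% of the 212 genes at least 2-fold higher at that floor, while members made up 2.15% of all genes there. At a fold of 1.5, 69 of the 246 members were higher, against 6.71% of all genes, and 3 (1.22%) were lower, against 5.24% of all genes. The interquartile range of the members ran from 0.03 to 0.63 on the log2 scale. Their values summed to 257510 in the ID2 library and 217935 in the control library.

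**Figure D1:**
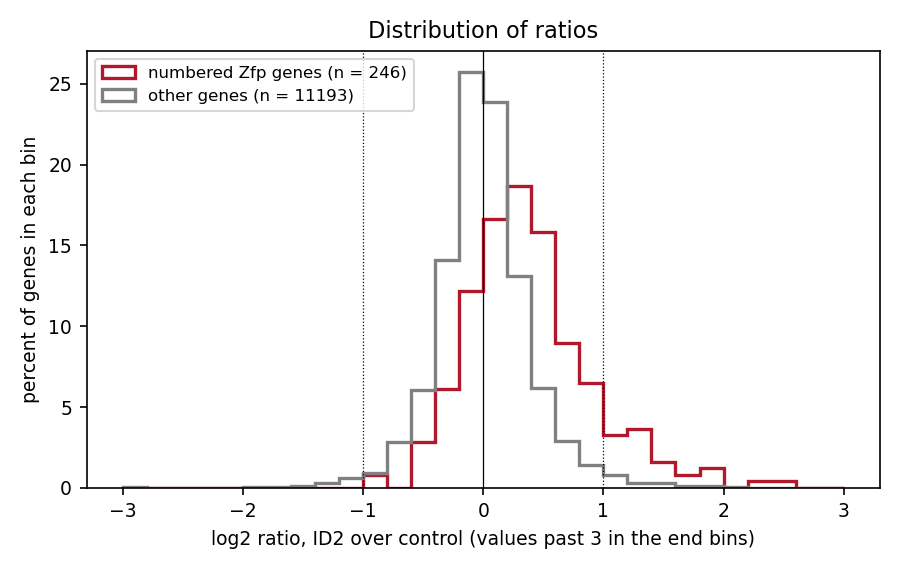
Share of genes (percent, vertical axis) in each bin of the log2 ratio of ID2 over control (horizontal axis) for the 246 numbered Zfp genes and the 11193 other genes with a mean of at least 100; dotted lines mark 2-fold. The Zfp distribution is centred at 0.30 and that of the other genes at -0.0067, and no Zfp gene lies beyond the 2-fold line on the lower side.

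The authors' deposited table gives 3 of the 246 members an adjusted p under 0.05, out of 26 genes in the whole table, and all 3 were higher in the ID2 library. In the authors' deposited table the adjusted p was 0.0266 for Zfp768 and 0.0484 each for Zfp808 and Zfp936. An unadjusted p under 0.05 in the authors' deposited table was given to 29 members that were higher in the ID2 library (11.8%, against 2.97% of all genes) and to 2 that were lower (0.813%, against 1.59%). These p-values rest on single libraries, whose spread between replicates was not measured.

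Zfp768 had the largest ratio of the set, with 366 in the ID2 library and 59.7 in the control library (6.04-fold, log2 ratio 2.59). Zfp319, which encodes 12 fingers and no KRAB box, followed with 376 in the ID2 library and 80.6 in the control library (4.62-fold). These 2 (0.813%) were the only members at least 4-fold higher, against 0.0699% of all genes. Both had a control value under 100 and so passed the floor on the mean only through the ID2 library. No member was 4-fold lower, against 0.0699% of all genes. Zfp771 had 289 in the ID2 library and 75.6 in the control library (3.79-fold), and Zfp764, from the same run of genes on chromosome 7, had 207 in the ID2 library and 55.7 in the control library (3.67-fold). Zfp936, a KRAB gene, had 703 in the ID2 library and 201 in the control library (3.49-fold). Zfp808, a KRAB gene with 22 fingers, had 1131 in the ID2 library and 395 in the control library (2.86-fold). The KRAB gene Zfp617 had 263 in the ID2 library and 79.6 in the control library, and Zfp628 had 336 in the ID2 library and 109 in the control library. Zfp809, which in mouse stem cells recognises the primer binding site of retroviruses and silences them with TRIM28, had 557 in the ID2 library and 223 in the control library (2.49-fold). The others of the 15 were Zfp672, Zfp426, Zfp46, Zfp599, Zfp14 and Zfp651, with ratios between 2.48-fold and 2.79-fold. Of the 28 members at least 2-fold higher, 20 had a control value under 200, where ratios spread most.

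**Figure D2:**
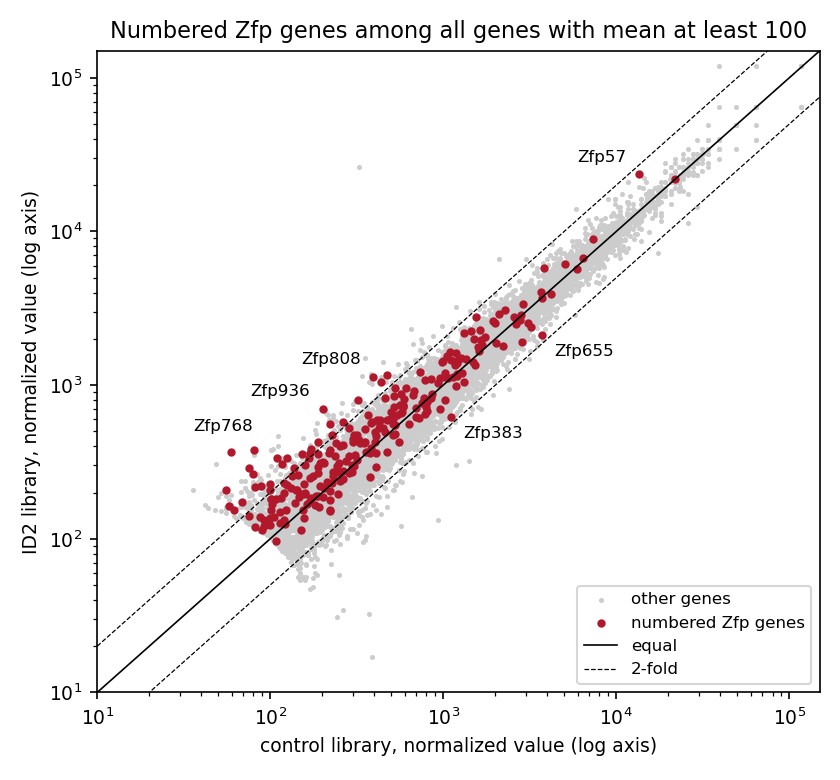
Normalized value in the ID2 library (vertical, log axis) against the control library (horizontal, log axis); each red point is 1 of the 246 numbered Zfp genes and each grey point 1 of the other genes, with lines for equal values and for 2-fold. Most red points lie above the line of equality, Zfp768 (366 and 59.7) lies farthest above it, and Zfp383 and Zfp655 lie farthest below it.

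On the lower side the differences were smaller. Zfp383, a KRAB gene, had 618 in the ID2 library and 1102 in the control library (1.78-fold lower, log2 ratio -0.83), the lowest ratio of the set. Zfp655 had 2129 in the ID2 library and 3719 in the control library (1.75-fold lower), and Zfp28, a KRAB gene, had 251 in the ID2 library and 378 in the control library (log2 ratio -0.59). These 3 were the members at least 1.5-fold lower (1.22%, against 5.24% of all genes). Zfp652 had 1910 in the ID2 library and 2852 in the control library (log2 ratio -0.58), Zfp637 had 152 and 223, Zfp800 had 154 and 222, Zfp956 had 293 and 410 and Zfp367 had 699 and 956, each with the ID2 library first. Zfp706, which in mouse embryonic stem cells favours the exit from self-renewal, had 2406 in the ID2 library and 3202 in the control library (-0.41). Zfp326, whose human counterpart joins a complex that couples transcription to splicing, had 798 in the ID2 library and 1028 in the control library (-0.37). Zfp341, whose human counterpart activates transcription of STAT3, had 370 in the ID2 library and 474 in the control library (-0.36). Zfp946, Zfp930, Zfp639 and Zfp69 completed the 15 lowest, with log2 ratios between -0.39 and -0.32.

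The promoters of the 2 highest and the 2 lowest members are given because ID2 acts on E proteins, which bind E-box sequences. Each runs from 250 bases before to 50 bases after the annotated start, from RefSeq, 5′ to 3′. The authors' files use another build, mm9, so these positions are RefSeq's. Capitals mark matches on either strand to the E-box letters CAGGTG (or its complement CACCTG), to the palindrome CAGCTG, and to the palindrome CACGTG.
Zfp768 promoter, GRCm38.p6, chr7:127345265-127345564, minus strand: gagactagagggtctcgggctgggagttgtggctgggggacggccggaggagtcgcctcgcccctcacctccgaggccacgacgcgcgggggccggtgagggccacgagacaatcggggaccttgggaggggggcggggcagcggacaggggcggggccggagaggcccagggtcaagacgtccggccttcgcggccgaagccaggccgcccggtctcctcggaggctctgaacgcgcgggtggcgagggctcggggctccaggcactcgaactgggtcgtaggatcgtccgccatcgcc
Zfp319 promoter, GRCm38.p6, chr8:95331762-95332061, minus strand: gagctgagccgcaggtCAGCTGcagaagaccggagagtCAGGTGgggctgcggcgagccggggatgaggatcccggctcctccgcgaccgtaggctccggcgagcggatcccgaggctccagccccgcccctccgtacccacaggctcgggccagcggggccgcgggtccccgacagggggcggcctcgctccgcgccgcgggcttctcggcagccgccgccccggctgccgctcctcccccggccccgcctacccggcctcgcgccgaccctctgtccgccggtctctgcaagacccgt
Zfp655 promoter, GRCm38.p6, chr5:145231492-145231791, plus strand: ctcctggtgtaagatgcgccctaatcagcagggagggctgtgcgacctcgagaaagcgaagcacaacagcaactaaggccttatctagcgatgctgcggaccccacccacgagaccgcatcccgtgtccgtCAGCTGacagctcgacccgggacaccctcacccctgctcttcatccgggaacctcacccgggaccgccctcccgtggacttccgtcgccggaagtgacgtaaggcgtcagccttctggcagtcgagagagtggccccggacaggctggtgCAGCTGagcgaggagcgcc
Zfp383 promoter, GRCm38.p6, chr7:29908267-29908566, plus strand: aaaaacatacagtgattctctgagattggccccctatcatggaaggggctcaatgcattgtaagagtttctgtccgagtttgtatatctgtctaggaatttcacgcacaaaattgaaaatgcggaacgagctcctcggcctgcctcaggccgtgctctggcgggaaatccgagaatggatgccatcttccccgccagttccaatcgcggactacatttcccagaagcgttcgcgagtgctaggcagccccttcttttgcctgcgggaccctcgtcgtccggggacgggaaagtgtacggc
Zfp319 held 1 CAGCTG and 1 CAGGTG, Zfp655 held 2 CAGCTG, and the windows of Zfp768 and Zfp383 held no match to these letters. Of 246 members, 204 had a promoter in this collection. At least 1 of these 3 motifs stood in 73 of 204 member promoters (35.8%), in 6 of 22 promoters of the members at least 2-fold higher (27.3%) and in 37.3% of all 27025 promoters of this length, and in 37.2% of those of genes with a mean of at least 100. CAGGTG stood in 13.7% of member promoters, 20.0% of all and 17.7% of those of genes with a mean of at least 100. In the same order, CAGCTG stood in 19.1%, 16.1% and 14.3%, and CACGTG in 7.84%, 7.24% and 10.9%. A match is a description of the letters and not of binding. The Zfp768 window had a GC share of 74.0%. The median was 55.7% over member promoters, 61.7% over those of genes with a mean of at least 100 and 52.7% over all promoters.

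Members with known roles were described in 5 lists. The lists overlap, as Zfp57, Zfp462, Zfp143, Zfp217 and Zfp207 stood in the stem cell list and were counted again in another list. The counts of higher genes in each list stand beside 78.0% of all members and 49.8% of all genes with a mean of at least 100. The list on silencing of retroelements and imprints named 10 genes, of which 8 were in the table and 6 above the floor. All 6 were higher in the ID2 library, and their median log2 ratio was 0.51, beside 0.30 for all members. Zfp57, which binds methylated imprint control regions and holds their methylation with TRIM28, had 23489 in the ID2 library and 13510 in the control library (0.80). Zfp568, which represses a placental promoter of Igf2 in the early embryo, had 5785 in the ID2 library and 3805 in the control library (0.60). Zfp961 had 2612 in the ID2 library and 1950 in the control library (0.42), and Zfp932, a repressor of endogenous retroviruses, had 295 in the ID2 library and 245 in the control library (0.27). Zfp445, which also protects imprints, had 1777 in the ID2 library and 1591 in the control library (0.16). Zfp809 was the 1 member of this list past 2-fold.

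Of 8 genes linked to the stem cell state, 7 were members, of which 5 stood higher in the ID2 library and 2 stood lower (median 0.28). Zfp296, a chromatin regulator of pluripotent cells, had 1217 in the ID2 library and 738 in the control library (0.72). Zfp462, which represses lineage genes through heterochromatin, had 6159 in the ID2 library and 5064 in the control library (0.28). Zfp217, a partner of the m6A RNA methyltransferase, had 3386 in the ID2 library and 2878 in the control library (0.23). Zfp207, a splicing and spindle factor, had 8978 in the ID2 library and 7329 in the control library (0.29). Zfp143, which binds promoters and chromatin loops, was lower, at 2525 in the ID2 library and 3102 in the control library (-0.30), as was Zfp706.

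Among 12 genes of chromatin and transcription complexes, 11 were members, of which 9 stood higher in the ID2 library and 2 stood lower (median 0.21). Zfp532, Zfp592 and Zfp687, which share a complex with ZMYND8, had log2 ratios of 0.65, 0.12 and 0.11. Zfp827, whose human counterpart acts at telomeres, stood at 0.54, and Zfp410, which activates Chd4, at 0.44. Zfp644, a partner of the G9a and GLP methyltransferases, stood at 0.21 and Zfp335 at 0.05, and Zfp609, a cohesin loader partner, was close to equal with 3686 in the ID2 library and 3702 in the control library. Of 11 members with roles in RNA, at the ribosome or in ubiquitin and SUMO pathways, 8 stood higher and 3 lower (median 0.13). Zfp830, needed in the inner cell mass, had the largest of these ratios (742 in the ID2 library and 561 in the control library, 0.40). Zfp638, which silences unintegrated retroviral DNA, stood at 0.25, Zfp318 at 0.25, Zfp622 at 0.23 and Zfp91, a ubiquitin ligase, at 0.13. Zfp598, the ubiquitin ligase of collided ribosomes, had 6743 in the ID2 library and 6433 in the control library (0.07), and the RNA-binding Zfp106 had 22077 and 21864 (0.01). The SUMO ligase Zfp451 (-0.08), the double-stranded RNA binder Zfp346 (-0.18) and Zfp326 were lower.

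Of 14 genes with roles in development and signaling, 10 were members, of which 9 stood higher in the ID2 library and 1 stood lower (median 0.38). Zfp704 had 2173 in the ID2 library and 1317 in the control library (0.72). Zfp423, a partner of SMADs and EBF factors, had 1463 in the ID2 library and 1103 in the control library (0.41). Zfp516, a regulator of brown fat, had 2920 in the ID2 library and 2092 in the control library (0.48), and Zfp64 had 2277 and 1624 (0.49). Zfp110 (0.41), Zfp292 (0.35), Zfp24 (0.35), Zfp148 (0.21) and Zfp219 (0.14) were also higher. Zfp369, a paralog of Zfp110, was the lower one, with 615 in the ID2 library and 720 in the control library (-0.23). Divided by the length of the annotated transcript, Zfp57 was the most abundant of the 10 members with the highest deposited means, at 9045 per kb in the ID2 library and 5202 per kb in the control library. Zfp207 followed at 5748 and 4692 per kb, Zfp740 at 3950 and 4254 per kb and Zfp106 at 2430 and 2407 per kb. In that same order of libraries, Zfp598 had 2012 and 1919 per kb, Zfp568 1444 and 950 per kb, Zfp219 1336 and 1214 per kb, Zfp710 977 and 1012 per kb, Zfp462 589 and 484 per kb and Zfp609 474 and 476 per kb.

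A KRAB box was found in 119 of the 246 members. Of these 119, 95 (79.8%) were higher in the ID2 library and 14 (11.8%) were at least 2-fold higher, with a median of 0.32. Of the 127 members without one, 97 were higher and 14 at least 2-fold higher, with a median of 0.28. Both classes thus had more higher than lower members. The order of their medians reversed at a floor of 200 and within classes of exon structure, given below. Of 22 genes of the corepressor machinery that KRAB proteins use, 16 stood higher in the ID2 library and 6 stood lower. The share of all genes with a mean of at least 100 that stood higher was 49.8%. The median of the 22 was 0.14 and none was 2-fold apart. Trim28, the corepressor itself, had 34240 in the ID2 library and 25906 in the control library (0.40), and Setdb1 had 4064 in the ID2 library and 3763 in the control library (0.11). Fam208a, a scaffold of the HUSH silencing complex, had 2979 in the ID2 library and 1714 in the control library (0.80). Smarcad1, a remodeler that binds TRIM28, had 3730 in the ID2 library and 2298 in the control library (0.70). Atrx stood at 0.33 and Hdac1 at 0.31. The lower genes, some of them named here after their values were seen, included the other HUSH subunits Mphosph8 (-0.14) and Pphln1 (-0.14), with Sumo2 (-0.20), Chd3 (-0.13) and Cbx3 (-0.03).

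Most members encoded many fingers, with a median of 10.5 and a range of 0 to 37 per protein. The ratios were larger at 10 or more fingers, where levels were also lower. The median control value was 990 at 4 or fewer fingers, 410 at 5 to 9, 230 at 10 to 14 and 322 at 15 or more. The part of level in this order was not tested. Among the 88 members with 10 to 14 fingers, 77 were higher in the ID2 library and the median was 0.47, and among the 53 with 15 or more fingers, 46 were higher and the median was 0.41. The 67 members with 5 to 9 fingers had a median of 0.17 (45 higher), and the 38 with 4 or fewer had a median of 0.18 (24 higher). These counts stand beside 49.8% higher over all genes with a mean of at least 100. All 28 members at least 2-fold higher had at least 5 fingers, as did 208 of 246 members. Genes with at least 5 fingers but another kind of name also stood higher. Of 125 such genes, 95 (76.0%) were higher and 13 (10.4%) at least 2-fold higher in the ID2 library (median 0.25). Of the other 10247 coding genes, 49.4% were higher and 1.47% at least 2-fold higher (median -0.0052). Of 39 such genes that also had a KRAB box, 34 were higher and the median was 0.41.

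The level and the exon structure of the members moved with the ratio. All genes were split by mean into 4 bins of equal size. In the lowest bin (100 to 381), the 115 members had a median of 0.49 and 95 (82.6%) were higher in the ID2 library. The other 2745 genes there had a median of -0.02 and 48.5% were higher. In the next bin (381 to 933) the 69 members had a median of 0.28 and the other genes -0.01. In the third bin (933 to 2117) the 38 members had a median of 0.21, and in the highest bin the 24 members had a median of 0.09, where the other genes were at -0.0035 and 0.00094. Of the 28 members past 2-fold, 21 lay in the lowest bin (18.3% of the members there, against 4.34% of the other genes there) and 7 in the next.

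**Figure D3:**
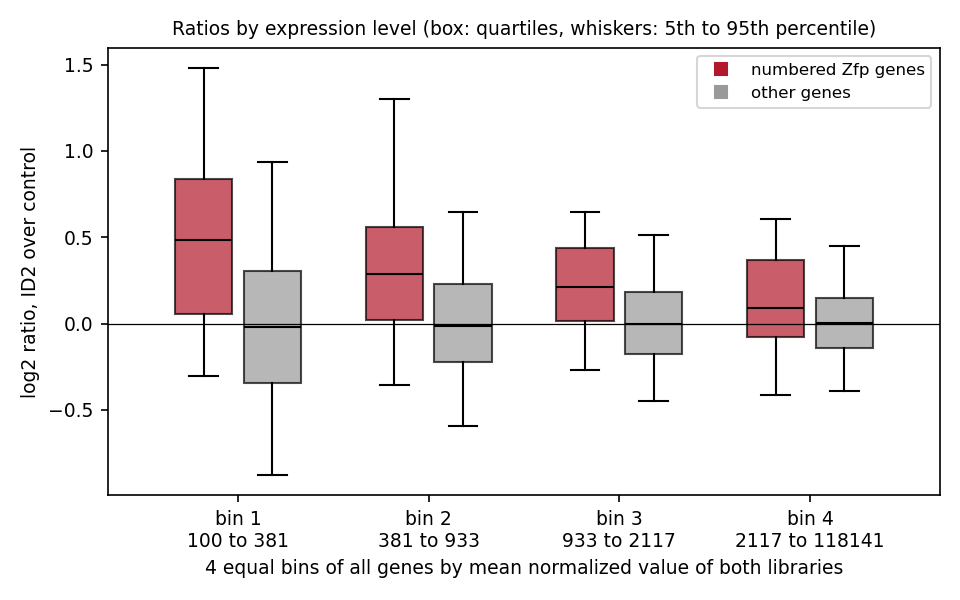
Log2 ratio of ID2 over control (vertical axis) in 4 equal bins of all genes by mean normalized value (horizontal axis), for numbered Zfp genes and other genes; boxes are quartiles and whiskers the 5th to 95th percentiles over genes. The Zfp medians are 0.49, 0.28, 0.21 and 0.09 from the lowest to the highest bin, while the other genes stay near 0.

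Zfp genes usually encode all their fingers in 1 long last exon. In GENCODE models the largest exon held at least 80% of the transcript in 136 of 246 members (55.3%) and in 11.9% of the other coding genes. Among these 136 members, 118 (86.8%) were higher in the ID2 library, 20 (14.7%) were at least 2-fold higher and the median was 0.40. Of the other coding genes in that exon class, 59.3% were higher and 5.11% at least 2-fold higher. Among the 110 members with a smaller largest exon, 74 (67.3%) were higher, 8 (7.27%) were at least 2-fold higher and the median was 0.19. Of the other coding genes there, 48.4% were higher and 1.11% at least 2-fold higher. Other genes with fewer than 5 fingers showed the same order at smaller values, with a median of 0.08 over 1169 genes whose largest exon held at least 80% and -0.01 over 9078 genes below that. Other genes with at least 5 fingers had medians of 0.35 over 64 genes at 80% or more and 0.13 over 61 genes below that. With a KRAB box, members had medians of 0.39 over 85 genes at 80% or more and 0.10 over 34 genes below that. Without one, the medians were 0.44 over 51 genes and 0.22 over 76 genes. Within each exon class, members with a KRAB box thus had the lower median. The median control value was 256 over the 136 members and 583 over the 110 members. The parts of exon structure and of level in the Zfp ratios were not tested.

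**Figure D4:**
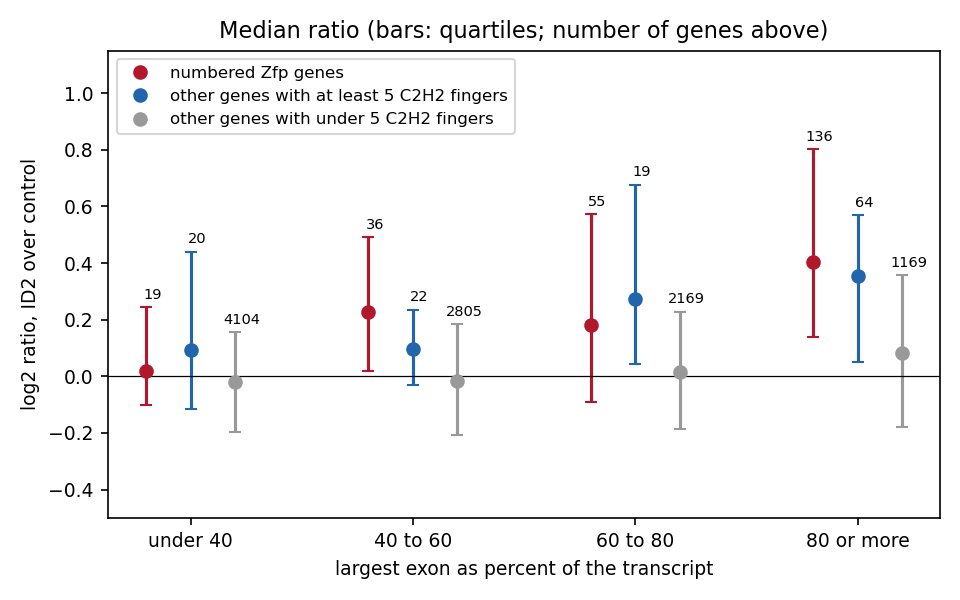
Median log2 ratio of ID2 over control (vertical axis, bars give the interquartile range over genes) by the share of the transcript in its largest exon (horizontal axis), for numbered Zfp genes, other genes with at least 5 C2H2 fingers and other genes with fewer; the number of genes stands above each bar. At 80% or more the medians are 0.40, 0.35 and 0.08.

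Numbered Zfp genes lie in clusters, and 65 members formed 8 runs of at least 5 in which consecutive members were separated by at most 3 other coding genes, in the order of RefSeq genes. Members in such runs (52 of 65 higher in the ID2 library, median 0.32) and members outside them (140 of 181 higher, median 0.29) had like medians. The run with the highest median, 0.98, lay on chromosome 7 (of GRCm38, as for all chromosomes named here) and held 7 members, in the order Zfp553, Zfp771, Zfp768, Zfp747, Zfp764, Zfp688 and Zfp689. Their log2 ratios were 0.85, 1.92, 2.59, 0.68, 1.87, -0.15 and 0.98 in that order, so that Zfp688 alone was lower. The 2 genes above the floor between them with fewer than 5 fingers, Sephs2 and Dctpp1, stood at 0.27 and -0.27. Zfp771, Zfp768 and Zfp764 were 3 of the 4 highest members of the whole set. A run of 7 members on chromosome 13, from Zfp595 to Zfp493, had a median of 0.59 with all 7 higher in the ID2 library. The longest run, 14 members on chromosome 7 from Zfp84 to Zfp146, had 10 higher members and held both Zfp14 (1.33) and Zfp383 (-0.83). A run of 13 KRAB genes on chromosome 17, from Zfp54 to Zfp40, had 11 higher members and a median of 0.30. The run from Zfp787 to Zfp28 on chromosome 7 was the 1 run with a negative median (-0.05, 2 of 5 higher). Chromosome 7 held 65 of the 246 members and 10 of the 28 at least 2-fold higher.

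**Figure D5:**
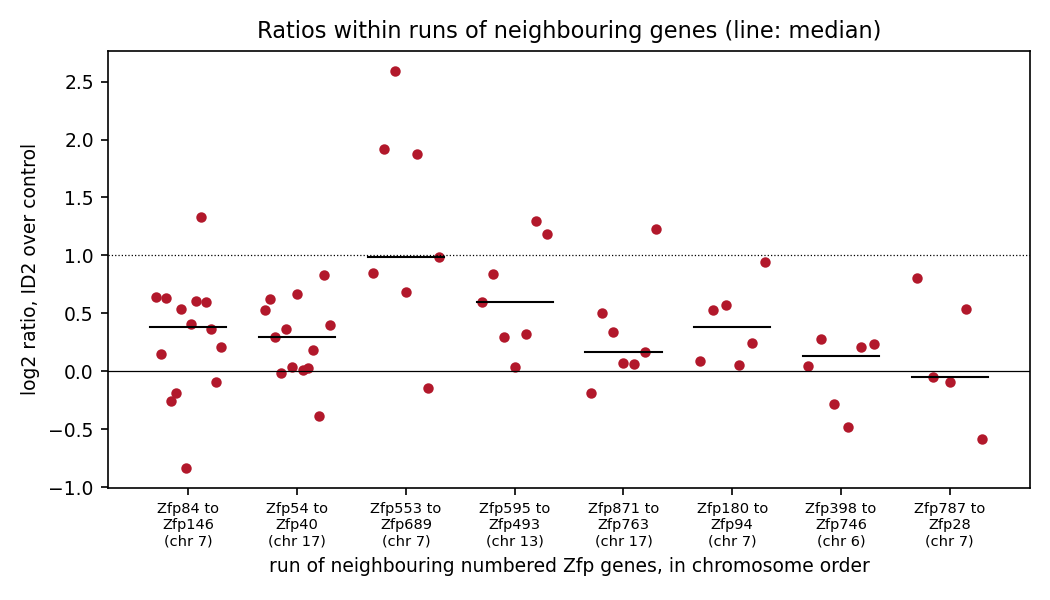
Log2 ratio of ID2 over control (vertical axis) of each member in the 8 runs of neighbouring numbered Zfp genes (horizontal axis, points in chromosome order, the short line a median, the dotted line 2-fold). The run from Zfp553 to Zfp689 has the highest median, 0.98, and the run from Zfp787 to Zfp28 the lowest, -0.05. In the former, Zfp771, Zfp768 and Zfp764 passed the floor on the mean only through the ID2 library.

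Just inside the floor stood Zfp583, Zfp597 and Zfp712, with means of 100.1, 102.1 and 102.5 and log2 ratios of 0.53, 0.35 and -0.17. Just outside it stood Zfp93, Zfp72 and Zfp287, with means of 98.7, 98.7 and 92.0 and log2 ratios of 1.55, 1.23 and 0.20. Of the 62 numbered Zfp genes under the floor, 50 were higher in the ID2 library, 21 were 2-fold or more higher and 3 were 2-fold or more lower, with a median of 0.73, while all 2959 genes under the floor had a median of 0.01, with 11.5% of them 2-fold or more higher and 11.5% lower. Zfp819, a KRAB gene that binds TRIM28, had the largest of those ratios, with 157 in the ID2 library and 23.9 in the control library (2.66). Zfp521, a regulator of early neural differentiation, had 115 in the ID2 library and 33.8 in the control library (1.73). Zfp703, a corepressor of the NET family, had 6.03 in the ID2 library and 25.9 in the control library (-1.93), the lowest ratio under the floor.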

How the data were processed

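RNA sequencing data of 1 ID2 and 1 control library were used as deposited. STAR and DESeq with build mm9 are named per the submitters' processing notes, without versions, with annotation and counter not given in the sources used here. Deposited by the authors were a normalized signal value per gene and library, their mean, a fold and its log2 (ID2 over control), and p-values with adjusted p-values. Every signal value deposited by the authors was a whole multiple, within 0.01, of a step of 1.00 in the ID2 library and 0.995 in the control library, and the sorted whole numbers were the same in both libraries, so the depth is unknown and no counting interval was computed. Ratios are relative to that shared distribution.

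Log2 ratios were computed with a pseudocount of 1 and a floor of 100 on the mean, and 2-fold was judged by size alone. From GENCODE M21 models (1 transcript with the longest coding sequence per gene, all 246 members matched) exon shares were computed, C2H2 fingers were counted as 2 cysteines 2 to 4 residues apart, a loop of 12 and 2 histidines 3 to 5 residues apart, and a KRAB box was called at 12 or more of 19 conserved residues. The fold rule and the medians were checked on simulated counts, drawn separately for each library, unlike the shared set of whole numbers in the deposited values. The finger and KRAB counters were checked on sequences built from the patterns they search for. Exon shares, runs and promoter matches were not part of these checks. Named genes were the 15 highest and 15 lowest ratios, the 10 highest means, the role lists, those with an authors' adjusted p under 0.05 and those at the floor; members of runs, the genes between them and genes under the floor were named after their values were seen. The members, lists and classes were chosen with earlier results of these data known. Python 3.11.15, pandas 2.3.3 and numpy 2.4.6 were used.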

Additional observations from a re-analysis of the deposited data

How the results depend on the processing

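The median log2 ratio of the members lay between 0.22 and 0.33 under the 9 alternatives that could change it, and no value changed sign past 2-fold. Members at least 2-fold higher numbered 49 without a floor, 18 with a floor of 200 and 4 with a floor of 500. The shares of all genes at those floors were 3.83%, 1.28% and 0.676%. At folds of 1.5 and 4 the count of higher members was 69 and 2, beside 6.71% and 0.0699% of all genes. The 2 at a fold of 4 passed the main floor only through the ID2 library. Without a floor, 3 of 308 members were 2-fold or more lower, beside 3.26% of all genes. With a floor of 50 it was 1 of 287, beside 1.86% of all genes. At a fold of 1.5 it was 3 of 246, beside 5.24% of all genes. With a floor of 500, 107 members were left, of which 77 were higher and 30 lower. The fall was not only one of gene number. The share of members past 2-fold higher was 3.74% there, against 11.4% at the main floor. For all genes that share was 0.676%, against 1.85% at the main floor. The median of the members was 0.22 at the floor of 500 and 0.30 at the main floor. In whole steps before the size factor, 188 members were higher, 55 lower and 3 equal. All 63 recomputed medians of lists and classes moved by at most 0.0756. The largest move was that of members with a KRAB box, to 0.25 at a floor of 200. Members without one stood at 0.26 there, so the order of these 2 medians reversed. Of 360 recomputed ratios of named members, 8 moved by over 0.1, all with a pseudocount of 10, which lowers the ratios of low genes; Zfp768 then stood at 2.43. No paired analysis was possible because each group had 1 library. Depth is unknown, so counting error of low members could not be separated from their ratios.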

Other observations

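Zinc finger genes outside the numbered set were also described. Of 19 Zfp genes with a letter after the number, 15 were higher in the ID2 library, with a median log2 ratio of 0.21. Of 19 Zscan and Zkscan genes, 14 were higher, with a median of 0.24, and of 39 Zbtb genes, 27 were higher, with a median of 0.12. Beside them, 49.8% of all genes with a mean of at least 100 were higher, with a median of -0.0023. Among the 125 genes with at least 5 C2H2 fingers and another kind of name, Zscan22 had the largest ratio, with 378 in the ID2 library and 102 in the control library (1.89). Sall3, a developmental repressor, had 591 in the ID2 library and 219 in the control library (1.43). Snai3, a member of the Snail family, was the 1 gene at least 2-fold lower, with 63.3 in the ID2 library and 145 in the control library (-1.19). These genes were named after their values were seen.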
